A study of Homo sapiens with 4 samples.

Results

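Genes of 8 prostate cell surface proteins that are used or tested as targets of imaging agents, antibodies or engineered T cells were followed across 4 arrays. They were FOLH1, STEAP1, STEAP2, PSCA, TMEFF2, SLC44A4, TRPM8 and SLC45A3, taken by gene symbol. Of the 8, 7 had a probe set annotated with their symbol alone, among 18417 such genes on the array. FOLH1 was annotated only on 2 probe sets that also carry its near-identical copy FOLH1B. Its signal could not be assigned to one of those genes, and it is given apart and not counted.

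The cells were LNCaP, a human prostate cancer line that responds to androgen, and LTAD, a subline that arose from it under prolonged androgen deprivation. There was 1 array for each of 4 groups. They were LTAD cells transfected with an siRNA against PSF (siPSF), LTAD cells transfected with a control siRNA (siControl), untransfected LTAD cells, and LNCaP cells. Culture of LTAD was in medium free of phenol red with 10% charcoal-stripped serum. LNCaP cells had been grown in 10% unstripped serum and were then held for 24 h in phenol red-free medium with 2.5% stripped serum, so all 4 arrays came from cells in hormone-depleted medium. Cell line and serum content changed together and cannot be told apart. PSF is an RNA-binding protein of transcription and splicing, encoded by SFPQ. With 1 array per group there was no replicate, no test and no error. Every difference below is between 2 single arrays, whose number limits the precision.

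Several of these proteins are restricted to prostate and a few other epithelia, which is why they serve as targets. FOLH1 encodes prostate-specific membrane antigen, a folate and peptide hydrolase that is the target of prostate cancer radioligands. STEAP1 and STEAP2 are multi-pass membrane proteins of a metalloreductase family. STEAP2 has an intracellular oxidoreductase domain that STEAP1 lacks. SLC44A4 and SLC45A3 belong to solute carrier families, TRPM8 is the cold- and menthol-gated cation channel, PSCA is a lipid-anchored protein of the Ly6 family, and TMEFF2 is a transmembrane protein with follistatin-like and EGF-like domains. Androgen induces SLC45A3 (prostein) and TRPM8 in prostate cells.

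Promoter sequences are shown for the 3 antigen genes with a level above background in at least 1 array that differed by at least 2-fold in 1 or more comparisons, SLC44A4, TMEFF2 and SLC45A3. Those of the chromosome 7 neighbours STEAP1 and STEAP2, which stayed under 2-fold after quantile normalization, are set beside them. Each run is the 250 bases upstream of the annotated gene start, 5′ to 3′ on the gene's strand, from RefSeq on GRCh38.p14. The positions are chr6:31878998-31879247, minus strand, for SLC44A4, chr2:192194934-192195183, minus strand, for TMEFF2, chr1:205680510-205680759, minus strand, for SLC45A3, chr7:90154219-90154468, plus strand, for STEAP1, and chr7:90211490-90211739, plus strand, for STEAP2. Capitals mark matches, on either strand, to the GC box GGGCGG, the CCAAT box CCAAT and the TATA box TATAAA.
SLC44A4: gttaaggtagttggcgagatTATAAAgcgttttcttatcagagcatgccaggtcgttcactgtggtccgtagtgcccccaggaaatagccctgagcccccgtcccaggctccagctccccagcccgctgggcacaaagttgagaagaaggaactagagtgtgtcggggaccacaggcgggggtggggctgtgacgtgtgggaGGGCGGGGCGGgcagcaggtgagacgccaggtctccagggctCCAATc
TMEFF2: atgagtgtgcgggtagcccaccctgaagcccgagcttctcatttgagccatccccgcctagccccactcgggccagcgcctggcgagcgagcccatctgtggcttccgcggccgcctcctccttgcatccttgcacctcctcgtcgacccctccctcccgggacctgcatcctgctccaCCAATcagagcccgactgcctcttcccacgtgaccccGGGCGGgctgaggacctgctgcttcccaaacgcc
SLC45A3: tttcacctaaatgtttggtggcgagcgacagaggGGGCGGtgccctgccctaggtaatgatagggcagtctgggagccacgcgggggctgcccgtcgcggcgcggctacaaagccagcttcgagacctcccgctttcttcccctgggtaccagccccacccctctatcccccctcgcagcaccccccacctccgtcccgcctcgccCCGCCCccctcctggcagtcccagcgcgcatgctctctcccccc
STEAP1: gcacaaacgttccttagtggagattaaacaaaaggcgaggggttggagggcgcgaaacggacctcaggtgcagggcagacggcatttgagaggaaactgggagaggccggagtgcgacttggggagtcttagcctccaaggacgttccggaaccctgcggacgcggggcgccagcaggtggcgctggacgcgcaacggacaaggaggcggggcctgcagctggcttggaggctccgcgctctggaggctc
STEAP2: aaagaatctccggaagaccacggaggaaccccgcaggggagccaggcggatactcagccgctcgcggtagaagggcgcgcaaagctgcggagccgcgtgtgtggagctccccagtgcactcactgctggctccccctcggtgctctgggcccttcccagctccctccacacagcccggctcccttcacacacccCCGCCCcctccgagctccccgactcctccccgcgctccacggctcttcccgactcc

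The GC box occurred in 4 of the 5 windows and in 42.6% of the 35116 windows of the RefSeq table cut to the same length. In SLC44A4 it matched at 48 and 43 bases before the start, where the matches share 1 base. TMEFF2 matched at 34, STEAP2 at 56, and SLC45A3 at 216 and 44 bases before the start. The CCAAT box was found 71 bases before the TMEFF2 start and 6 bases before the SLC44A4 start, and in 32.0% of all windows. TATAAA was in the SLC44A4 window, 230 bases upstream, and in 10.7% of all windows. The androgen receptor half-site AGAACA, present in 12.4% of all windows, was in none of the 5, and neither was the palindromic androgen response element, found in 1 window of the table. GC content ran from 61.2% in SLC44A4 to 69.6% in STEAP2, with a median of 58% over all windows. A match or its absence describes these letters only, since no binding was measured.

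The deposited levels are log2 values, and the 4 arrays were not on a common scale. Median levels over all 33297 probe sets were 6.04 for siPSF, 5.98 for siControl, 7.20 for untransfected LTAD and 6.91 for LNCaP. Levels and differences below are therefore after quantile normalization of the 4 arrays unless the deposited scale is named. A deposited level under 7.24, the median of all gene values, is taken as not shown above background, and no fold is given where either array reads under it. Of all genes, 56.9% read under it as deposited with siPSF, 56.4% with siControl, 41.6% in untransfected LTAD and 45.2% in LNCaP. After quantile normalization the shares were 49.8%, 49.3%, 50.8% and 50.5%. A deposited reading under 7.24 thus partly reflects the scale of its array. The siRNA target SFPQ read 9.87 with siPSF, against 11.23 with siControl, 10.82 in untransfected LTAD and 10.83 in LNCaP. It was thus 2.58-fold lower with siPSF than with siControl, and 1.93-fold lower than in untransfected LTAD.

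Of 6 measured luminal epithelial markers, 5 (KRT8, KRT18, HOXB13, SPDEF and CDH1) read above 7.24 in all 4 arrays. KLK3, the gene of prostate-specific antigen, did so in untransfected LTAD and LNCaP only. These counts are on the deposited scale, and after quantile normalization KLK3 read 7.47 in siControl. None of 3 endothelial markers passed in any array, and of 4 immune markers only CD68 did, while COL1A1 was the 1 of 6 stromal markers that passed in all 4. The matrix gene LUM read 2.97 with siPSF, 3.21 with siControl, 8.80 in untransfected LTAD and 3.78 in LNCaP. The summed linear level of the 6 stromal markers was 475 with siPSF, 460 with siControl, 906 in untransfected LTAD and 385 in LNCaP. Without LUM the sum of the other 5 was 467 with siPSF, 451 with siControl, 459 in untransfected LTAD and 371 in LNCaP. That of 5 neuroendocrine markers was 1731, 1083, 1541 and 734 in that order, with ENO2 the only one above 7.24 in all arrays. ENO2 read 10.52, 9.67, 10.29 and 9.01 in that order and made up most of each sum. CHGA, CHGB and SYP read under 7.24 in every array, so the sum mainly follows 1 gene. The part of any of these markers in the results was not tested. Among these markers, the untransfected LTAD array stood apart from the transfected LTAD arrays mainly in LUM and KLK3. Its neuroendocrine sum, and its stromal sum without LUM, lay between those of siPSF and siControl. Of the 11049 genes kept by the filter, 9.86% were 2-fold apart in either direction between siControl and untransfected LTAD. The line comparisons of the antigen genes below are for that reason given with both LTAD arrays.

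**Figure D1:**
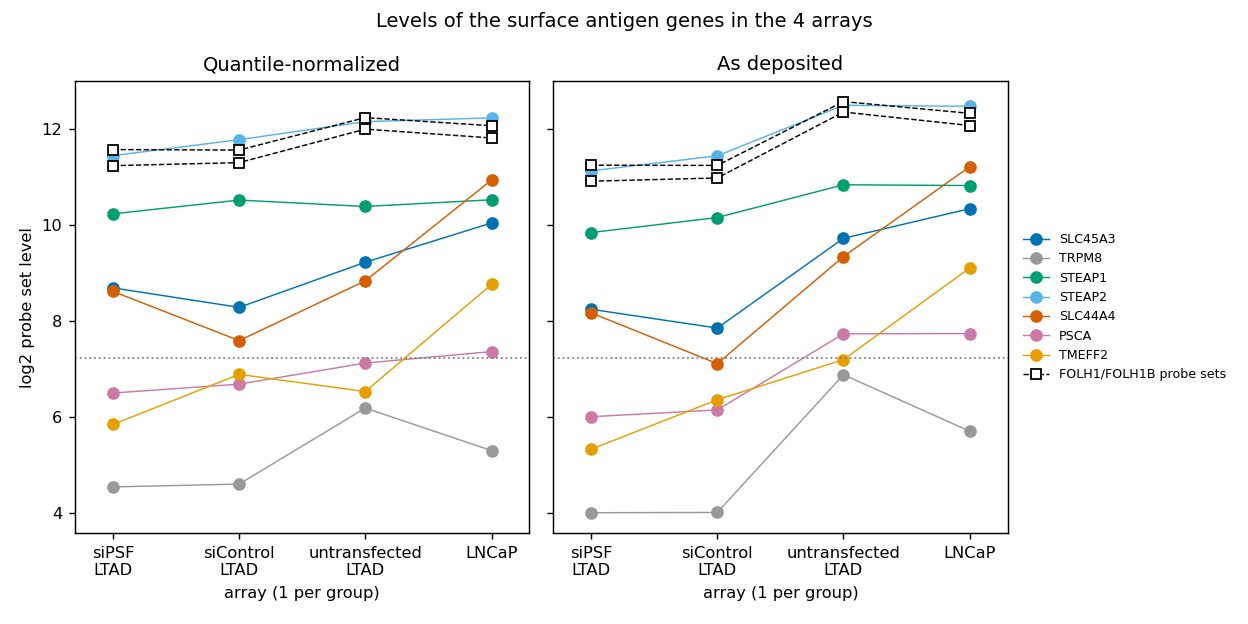
Log2 level (y) of each antigen gene in the 4 arrays (x), after quantile normalization (left) and as deposited (right); lines only join the points of 1 gene and the dotted line is 7.24. SLC44A4 spans 3.35 and TMEFF2 2.92 after normalization, STEAP1 spans 0.29, and TRPM8 lies under the line in all 4 arrays.

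The metalloreductase family members had narrow spans over the arrays, and that of STEAP1 was the smallest of the 7 genes. STEAP1 read 10.24 with siPSF, 10.53 with siControl, 10.39 in untransfected LTAD and 10.53 in LNCaP, a span of 0.29. STEAP2 read 11.45 with siPSF, 11.79 with siControl, 12.16 in untransfected LTAD and 12.24 in LNCaP, a span of 0.79. Both genes were above 7.24 on the deposited scale in every array, so that all 4 cultures held readable STEAP1 and STEAP2 RNA. STEAP2 was lowest with siPSF, at 1.64-fold under untransfected LTAD. STEAP1 had no array that stood clear of the other three.

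The 2 probe sets shared by FOLH1 and FOLH1B gave one picture. One read 11.25 with siPSF, 11.31 with siControl, 12.01 in untransfected LTAD and 11.82 in LNCaP, and the other 11.58, 11.57, 12.25 and 12.08 in the same order. Both were higher in the arrays of untransfected cells than in those of transfected cells, by less than 2-fold after quantile normalization. SiPSF and siControl differed by -0.06 and 0.01 on the 2 probe sets, and untransfected LTAD and LNCaP by 0.18 and 0.17. The 4 readings of each probe set were above 7.24 on the deposited scale, and either gene copy could give them. As deposited, siControl stood at -1.09 against LNCaP on both probe sets.

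SLC44A4, a choline transporter-like protein, had the widest span of the 7 genes, at 3.35. It read 8.62 with siPSF, 7.60 with siControl, 8.84 in untransfected LTAD and 10.94 in LNCaP. LNCaP was highest and siControl lowest, with siPSF and untransfected LTAD close together. Its 3 probe sets held identical values and are not independent readings. SLC45A3, prostein, read 8.70 with siPSF, 8.29 with siControl, 9.23 in untransfected LTAD and 10.05 in LNCaP, in the same order of arrays as SLC44A4 but over 1.76. On the deposited scale all 4 SLC45A3 levels were above 7.24, as were all SLC44A4 levels but that of siControl, at 7.12.

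TMEFF2 read 5.85 with siPSF, 6.89 with siControl, 6.53 in untransfected LTAD and 8.77 in LNCaP. LNCaP was the only array above 7.24, on either scale. The 3 LTAD levels are readings not shown above background, untransfected LTAD being closest at 7.20 on the deposited scale. PSCA read 6.50 with siPSF, 6.69 with siControl, 7.13 in untransfected LTAD and 7.37 in LNCaP. It lay near the background value throughout, above it on the deposited scale in untransfected LTAD and LNCaP, both at 7.74. TRPM8 read 4.54 with siPSF, 4.60 with siControl, 6.19 in untransfected LTAD and 5.30 in LNCaP, never above 7.24 on either scale. The filter left TRPM8 out, and the counts below are over the other 6 genes.

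Knockdown of PSF in LTAD cells left most of the antigen genes within 2-fold of siControl. SLC44A4 was higher with siPSF, by 1.03, and TMEFF2 differed by -1.04. They were the 2 of 6 genes at least 2-fold apart, where 0.724% of all kept genes were (0.0634% higher and 0.661% lower). SLC45A3 was higher by 0.41, and STEAP1, STEAP2 and PSCA differed by -0.29, -0.33 and -0.19. The median of the 6 was -0.24, against -0.01 over all kept genes. Both 2-fold differences rest on readings not shown above background. SLC44A4 read under 7.24 in siControl on the deposited scale, and TMEFF2 in both arrays, having passed the filter through LNCaP alone. After quantile normalization SLC44A4 read 7.60 in siControl, above 7.24, so its flag depends on the scale. With both arrays required to reach 7.24 on the deposited scale, only SLC45A3, STEAP1 and STEAP2 remained, and 0 of these were 2-fold apart. The share of all genes under that rule is not given here. With the deposited values centred on each array's median, SLC44A4 came to just under 2-fold, which left 1 of 6 genes, where 0.996% of all kept genes passed.

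Set against untransfected LTAD in place of siControl, the siPSF array differed by less than 2-fold for SLC44A4 and TMEFF2. SLC44A4 changed side, and TMEFF2 kept its side with a smaller difference. SLC44A4 then differed by -0.22 and TMEFF2 by -0.69, and 0 of the 6 genes were 2-fold apart, against 9.87% of all kept genes. The SLC44A4 level with siPSF thus lay 1.03 above one LTAD array and 0.22 below the other. SLC45A3 likewise changed side, at -0.53 against untransfected LTAD and 0.41 against siControl. STEAP1, at -0.15, STEAP2, at -0.71, and PSCA, at -0.63, were lower with siPSF than in either other LTAD array, each by less than 2-fold after quantile normalization. TMEFF2 was also lower with siPSF than in either, on LTAD readings not shown above background. On the deposited scale 5 of 6 genes were at least 2-fold lower than in untransfected LTAD, where 45.2% of all kept genes were, with STEAP2 at -1.37 and PSCA at -1.73. With median centring STEAP1 turned to 0.16, and SLC44A4 stood at -0.02, close to no difference.

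**Figure D2:**
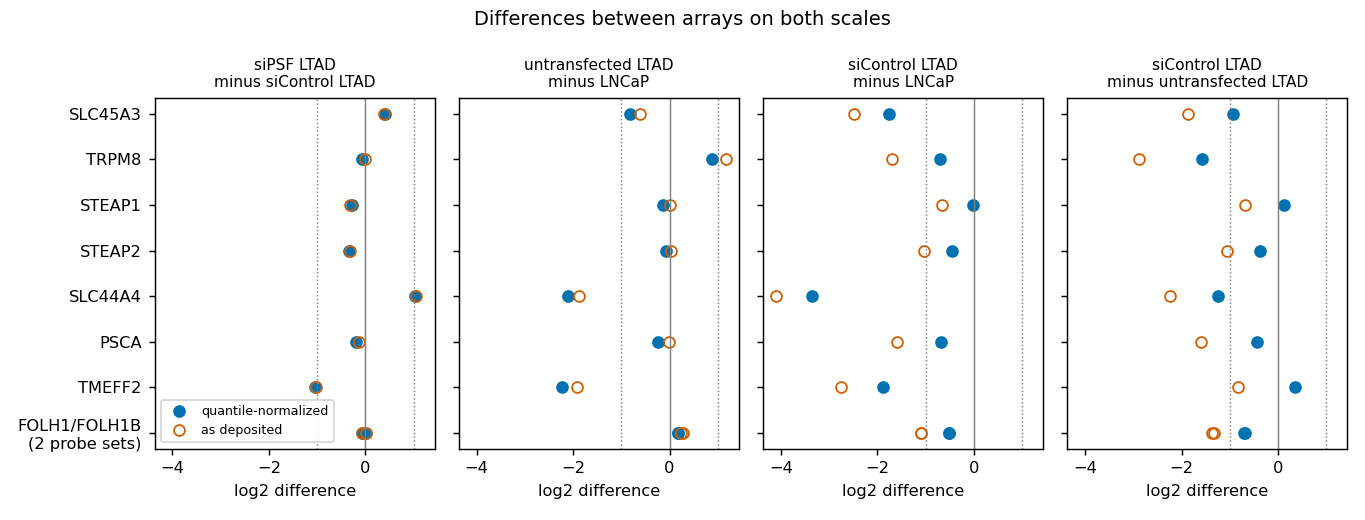
Log2 difference (x) of each antigen gene (y) in the 4 comparisons, after quantile normalization (filled) and as deposited (open), with dotted lines at 2-fold. The scales nearly coincide for siPSF minus siControl, and SLC44A4 and TMEFF2 lie beyond 2-fold on the low side of LNCaP in both LTAD arrays.

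Between the androgen-deprived subline and its parent, SLC44A4 and TMEFF2 stood apart. SLC44A4 was 4.29-fold lower in untransfected LTAD, and TMEFF2 differed by -2.23 with only its LNCaP level above 7.24. None of the 6 genes was 2-fold higher. These 2 of 6 compare with 5.69% of all kept genes at least 2-fold apart, with 3.42% lower. SLC44A4, above 7.24 in both arrays, was the 53rd lowest of 11049. TMEFF2 passed the filter through LNCaP alone, so its difference rests on a reading not shown above background. SLC45A3 was 1.76-fold lower. PSCA differed by -0.24, STEAP1 by -0.14 and STEAP2 by -0.08. On the deposited scale, where all kept genes shifted by 0.20, STEAP1 and STEAP2 stood at 0.02 each and PSCA at -0.01. The median of the 6 was -0.53, against 0.02 over all kept genes. All 5 kept transcription factor genes of prostate epithelium were higher in untransfected LTAD, each by less than 2-fold. GATA2 was higher by 0.61, SPDEF by 0.41, GRHL2 by 0.20, FOXA1 by 0.19 and HOXB13 by 0.13. KLK3 differed by -1.83.

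SiControl LTAD was also set against LNCaP, where cell line, serum content and transfection changed together and cannot be told apart. SLC44A4 differed by -3.35 and TMEFF2 by -1.88, but their siControl levels were under 7.24 on the deposited scale and not shown above background. After quantile normalization SLC44A4 read 7.60 in siControl, above 7.24. SLC45A3 was 3.39-fold lower, against 1.76-fold in untransfected LTAD. It was the 1 gene 2-fold apart with both arrays above 7.24 on the deposited scale. These 3 of 6 genes compare with 5.23% of all kept genes at least 2-fold apart, with 2.97% lower. PSCA differed by -0.68, STEAP2 by -0.45 and STEAP1 by -0.01. The median of the 6 was -1.22, against 0.05 over all kept genes. Of the 5 kept transcription factor genes, 2 were higher in siControl and 3 lower. SPDEF differed by 0.58, HOXB13 by 0.22, FOXA1 by -0.07, GATA2 by -0.23 and GRHL2 by -0.75. KLK3 differed by -5.42 here. Both line comparisons share the LNCaP array, so they are not independent of each other. On the deposited scale all kept genes shifted by -0.72 in the siControl comparison, and STEAP1 stood at -0.67, close to that shift. There 5 of 6 genes were at least 2-fold lower, STEAP1 being the exception, where 24.6% of all kept genes were.

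**Figure D3:**
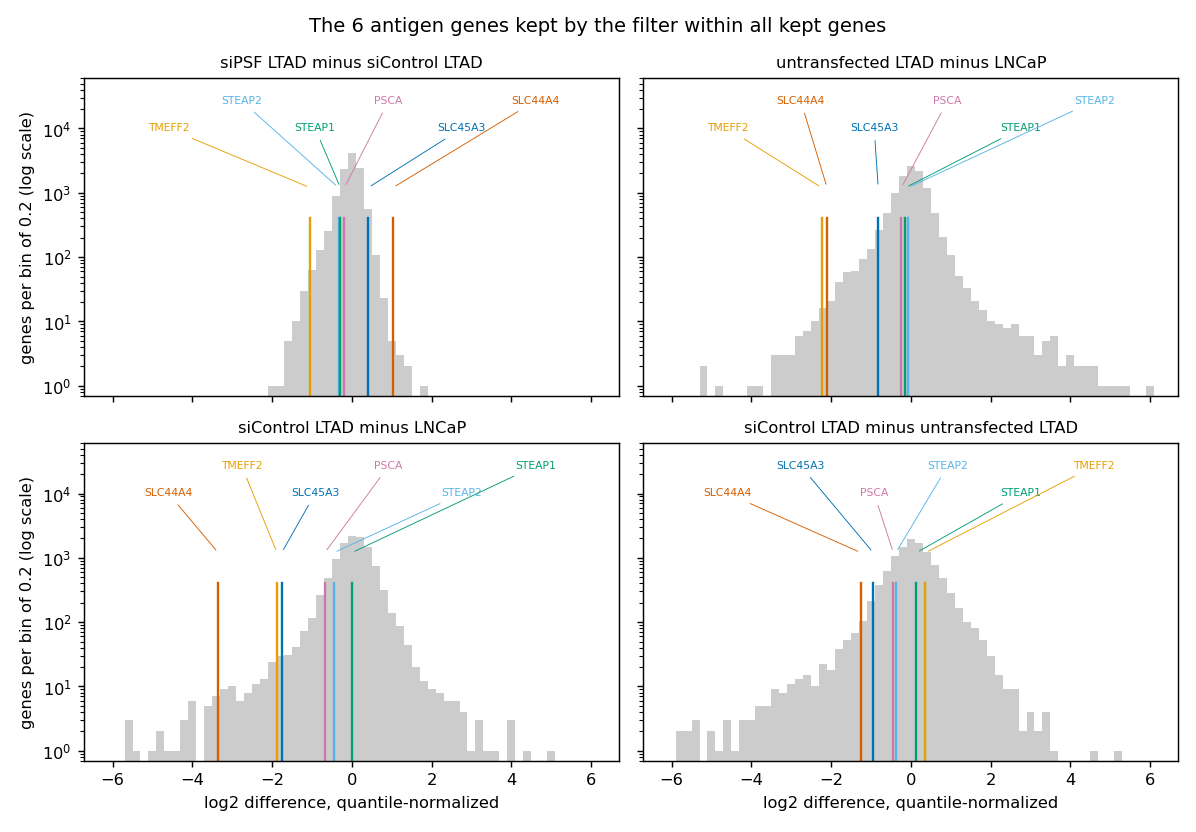
Number of kept genes (y, log scale) by log2 difference after quantile normalization (x, bins of 0.2) in the 4 comparisons; vertical lines mark the 6 antigen genes kept by the filter. SLC44A4 and TMEFF2 lie in the lower tail of both LNCaP panels, and at opposite ends with siPSF, at 1.03 and -1.04.

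SiControl and untransfected LTAD differ in transfection and possibly in culture. The 2 arrays show how far apart 2 single LTAD arrays without an siRNA against PSF lay. They do not separate transfection from variation between arrays. SLC44A4 differed by -1.25 and was the 1 of 6 genes at least 2-fold apart, where 9.86% of all kept genes were, with 4.32% lower. SLC45A3 differed by -0.94, PSCA by -0.44, STEAP2 by -0.38, STEAP1 by 0.13 and TMEFF2 by 0.36. TRPM8, under 7.24 in both arrays, differed by -1.59. The SLC44A4 difference between these LTAD arrays was thus larger in size than the 1.03 between siPSF and siControl. Both differences share the siControl reading of SLC44A4, which was under 7.24 on the deposited scale. On the deposited scale all kept genes shifted by -0.92, and STEAP1 and TMEFF2 turned to -0.68 and -0.84. There 4 of 6 genes were at least 2-fold lower, SLC45A3, STEAP2, SLC44A4 and PSCA, where 43.4% of all kept genes were. In bulk RNA, fewer cells with a transcript and less of it per cell cannot be told apart.

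Most relatives of the antigens in the same protein families stayed within 2-fold, as did most of all kept genes. Of 27 such genes 25 were measured and 14 kept. With siPSF, 1 of the 14 was 2-fold lower than with siControl, where 0.661% of all kept genes were, and none was higher. This was NAALADL2, a distant relative of FOLH1, at -1.80. Its siPSF level was 6.06 on the deposited scale, under 7.24, so the difference rests on a reading not shown above background. NAALADL2 read 6.55 with siPSF, 8.35 with siControl, 10.12 in untransfected LTAD and 9.83 in LNCaP. Its genomic span of 1370 kb was the 5th longest among 11039 kept genes with a known span. TMEFF2, at 246 kb, was the 472nd longest. SLC44A4 spans 15.8 kb, SLC45A3 22.7 kb, STEAP1 10.4 kb, STEAP2 31.7 kb, PSCA 12.4 kb and TRPM8 102 kb, against a median of 27.6 kb. Whether span bears on any of these differences was not tested.

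In untransfected LTAD against LNCaP, 1 relative was 2-fold higher and 1 lower, where 2.27% and 3.42% of all kept genes were. The channel gene TRPM3 read 6.80 in untransfected LTAD, against 5.30 in LNCaP, where it was under 7.24 as deposited. TRPM3 passed the filter through untransfected LTAD alone, at 7.44 as deposited. Its differences in this paragraph thus rest on readings not shown above background. The choline transporter gene SLC44A1 was 2.15-fold lower. SLC44A2 and SLC44A3, of the same carrier family, differed by 0.41 and 0.02. TRPM4, another channel of the TRPM8 family, differed by -0.79. In siControl against LNCaP, NAALADL2 was the 1 relative 2-fold apart, 2.79-fold lower, where 5.23% of all kept genes were 2-fold apart. Against untransfected LTAD, siControl had 2 relatives 2-fold lower, TRPM3 at -1.91, under 7.24 in siControl, and NAALADL2 at -1.77. It had 1 higher, STEAP3, the metalloreductase of iron uptake, by 2.13-fold, a difference of 0.09 on the deposited scale. Of all kept genes, 4.32% were 2-fold lower and 5.54% higher there after quantile normalization.

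Other surface proteins pursued in prostate cancer gave a list of 30, of which 28 were measured and 15 kept. None was 2-fold apart between siPSF and siControl, where 0.724% of all kept genes were, and the median of the 15 was 0.08. ERBB2 and ERBB3, receptor tyrosine kinases, were higher by 0.52 and 0.50, and EGFR, of the same receptor family, differed by -0.55. Against LNCaP, untransfected LTAD had 1 gene 2-fold higher, the adhesion molecule gene ALCAM at 2.25-fold, and 1 lower, the orphan receptor gene GPR158 at -2.11. Of all kept genes, 2.27% were higher and 3.42% lower. SiControl had 3 lower than LNCaP, GPR158 at -1.37, EGFR at 2.41-fold and NECTIN4, an adhesion molecule, at -1.22, and none higher. Of all kept genes, 2.97% were lower. SiControl was lower than untransfected LTAD for ALCAM, by 2.71-fold, and for NECTIN4, at -1.29, where 4.32% of all kept genes were 2-fold lower. NECTIN4 read under 7.24 in siControl on the deposited scale, at 6.03, so both its differences rest on a reading not shown above background. GPR158 read 7.43 with siPSF, 7.87 with siControl, 7.12 in untransfected LTAD and 9.23 in LNCaP. EPCAM, an epithelial adhesion molecule, read 11.44, 11.49, 10.59 and 11.08 in that order.

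Androgen-induced prostate genes formed a list of 25 that holds SLC45A3 and TRPM8 themselves, with 20 measured and 16 kept. Between siPSF and siControl 0 of 16 were 2-fold apart, where 0.724% of all kept genes were, and the median of the 16 was -0.05. In untransfected LTAD 5 were 2-fold lower than in LNCaP and none higher, where 3.42% of all kept genes were lower, with a median of -0.71. The lowest were KLK3 (3.55-fold lower), ABCC4, a drug and prostaglandin exporter (3.47-fold lower), the scaffold gene HOMER2 (2.68-fold lower) and ALDH1A3, a retinal dehydrogenase (2.50-fold lower). In siControl 8 were 2-fold lower than in LNCaP, among them KLK3, ELL2, an elongation factor gene, PMEPA1 and SLC45A3, where 2.97% of all kept genes were lower, with a median of -1.04. Of the 8, KLK3, ELL2 and ALDH1A3 read under 7.24 in siControl on the deposited scale. KLK2, the kallikrein gene next to KLK3, differed by 0.04 in untransfected LTAD and -0.86 in siControl. The androgen-induced genes thus did not all lie low in LTAD. SiControl was lower than untransfected LTAD for KLK3 and ELL2, at -3.59 and -1.45, where 4.32% of all kept genes were 2-fold lower.

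The genes whose levels over the 4 arrays ran most like an antigen's were found by the distance between mean-centred log2 profiles, over n = 4 arrays and 11048 genes. Nearest to SLC44A4 were TMEM45B at 0.49, TOX3 at 0.55 and BAMBI, a decoy receptor of TGF-beta signalling, at 0.67. TMEM45B and TOX3 passed 7.24 in 1 array, LNCaP, and BAMBI in all 4. TMEFF2 was nearest to CRISP3 at 0.28, RPS6KA3, a kinase of the MAPK pathway, at 0.31 and SLC4A4, a bicarbonate transporter, at 0.43. SLC4A4 read 7.48 with siPSF, 8.05 with siControl, 7.72 in untransfected LTAD and 9.86 in LNCaP. CRISP3 passed 7.24 in 1 array, and RPS6KA3 and SLC4A4 in 3. SLC45A3 had the closest matches, MYO6, an actin motor, at 0.07, KIF13B, a kinesin, at 0.12 and SMCO4 at 0.16. KIF13B passed 7.24 in 2 arrays. The profiles were centred but not scaled, so distances also depend on a gene's span, which was 1.76 for SLC45A3. It was 3.35 for SLC44A4 and 2.92 for TMEFF2. MYO6 read 10.15 with siPSF, 9.73 with siControl, 10.73 in untransfected LTAD and 11.57 in LNCaP.

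**Figure D4:**
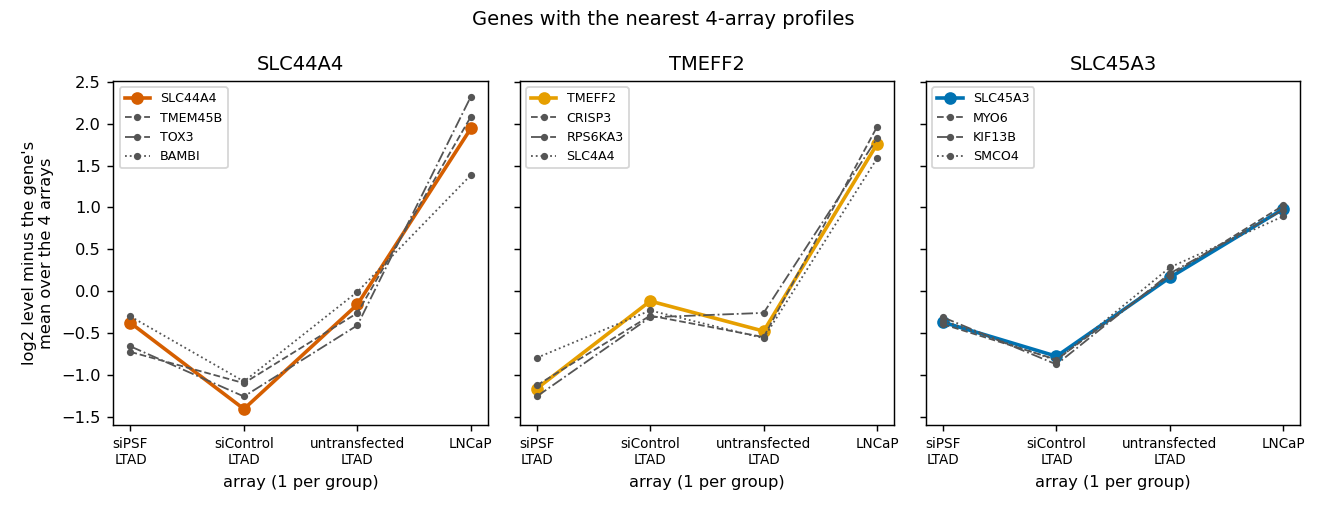
Log2 level after quantile normalization, minus each gene's mean over the 4 arrays (y), by array (x), for SLC44A4, TMEFF2 and SLC45A3 (coloured) and their 3 nearest genes (grey). The nearest profile to SLC45A3 is MYO6, at a distance of 0.07, and all 12 genes are highest in LNCaP.

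The genes next to 3 of the antigens on their chromosomes are given beside them. SLC44A4 on chromosome 6 lies between NEU1, a sialidase gene, and EHMT2, a histone methyltransferase gene. With siPSF these were higher than with siControl by 0.43 and 0.41, and in untransfected LTAD against LNCaP they differed by -0.01 and -0.24. SLC45A3 on chromosome 1 lies next to ELK4, an ETS factor gene with which it can form a chimeric transcript. ELK4 was higher with siPSF by 0.30, and differed by -0.19 in untransfected LTAD and -0.62 in siControl, each against LNCaP. NUCKS1, on the other side of SLC45A3, differed by -0.08 between siPSF and siControl and by -0.09 between untransfected LTAD and LNCaP. SLC39A10, a zinc transporter gene next to TMEFF2 on chromosome 2, differed by -0.57 with siPSF, by -0.70 in untransfected LTAD against LNCaP and by 0.81 in siControl against LNCaP, where TMEFF2 was lower. CAVIN2, on the other side of TMEFF2, was left out by the filter.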

How the data were processed

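Total RNA was hybridised to 4 whole-transcript arrays. Each deposited value is a log2 level of 1 probe set. RMA and Affymetrix Expression Console are the tools named, per the submitters' processing notes, and no version is given. Names came from the platform's annotation table, with symbols updated by Entrez ID to RefSeq (GRCh38.p14), which matched 19429 of the 19460 probe sets with 1 symbol. Another 1754 had several symbols and 12083 were unnamed here. Where a gene had more than 1 probe set (769 genes), that of the highest mean level stood for it. A gene was kept if its deposited level reached 7.24, the median over 18417 genes, in at least 1 array, which kept 11049. The 4 arrays were quantile-normalized over all probe sets in Python 3.11.15 with numpy 2.4.6 and pandas 2.3.3, and differences were counted at 2-fold, with no test, since each group held 1 array. The computation was tested on simulated data.

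The members and gene lists were chosen with earlier results of these data known. Named genes were the members, SFPQ, KLK3, the 3 nearest profiles of each kept member spanning at least 1 (log2), and up to 4 list genes per direction at 2-fold or more. Other list genes, the chromosomal neighbours and the promoter windows were chosen after values were seen. No detection calls were used. The lists' genes without a probe set of their own were not analysed here.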

Additional observations from a re-analysis of the deposited data

How the results depend on the processing

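With 1 array per group, no replicate could be left out. No paired analysis was possible because each group holds 1 array. For siPSF against siControl, the count of 2 antigen genes at least 2-fold apart came to 1 with median-centred deposited values, where SLC44A4 was just under the threshold, to 0 when both arrays had to reach 7.24 and to 0 with untransfected LTAD in place of siControl, where SLC44A4 turned to -0.22. For untransfected LTAD against LNCaP the count of 2 came to 1 when both arrays had to reach 7.24 and to 3 at a 1.5-fold threshold. For siControl against LNCaP the count of 3 came to 5 on the deposited values, to 1 with both arrays at 7.24 and to 4 at 1.5-fold. For siControl against untransfected LTAD the count of 1 came to 4 on the deposited values, 2 with no filter, which adds TRPM8, 0 with both arrays at 7.24 and 2 at a 1.5-fold threshold. The mean of all probe sets, and counting FOLH1 through its shared probe sets, an alternative chosen after seeing the data, left all 4 counts as they were. The requirement of 7.24 in both arrays was on the deposited scale. Shares of all genes at 1.5-fold, with no filter or with both arrays at 7.24 are not given here.

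The scale decides how many of all kept genes pass 2-fold. For untransfected LTAD against LNCaP 251 were higher and 378 lower after quantile normalization, and 355 and 255 as deposited. For siControl against LNCaP the counts were 250 and 328, 52 and 2719 as deposited, and 448 and 286 with median centring. For siControl against untransfected LTAD they were 612 and 477, 65 and 4791, and 1204 and 329. For siPSF against untransfected LTAD they were 511 and 579, 49 and 4989, and 860 and 449. With median centring, STEAP1 turned to 0.26 in siControl against LNCaP and STEAP2 to 0.16 in siControl against untransfected LTAD. Levels near or under 7.24 limit TMEFF2, PSCA and TRPM8.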
